A study of Anguilla japonica with 6 samples.

Results

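The DNA repair genes of the Japanese eel (Anguilla japonica) were taken by name from a table of full-length transcripts of the ovary and testis. A gene symbol came from the protein hit of each transcript, when that hit was a vertebrate protein, and 71 of 9262 symbols matched a fixed pattern of repair gene names (fanc, brca, rad, msh, mlh, pms, xrcc, ercc, xpa, xpc, parp, lig, pol, atm, atr, nbn and mre11). These 71 genes held 250 of 35011 transcripts, and the values of the transcripts of a symbol were summed. The ovary group was 3 ovaries of 3 females and the testis group 3 testes of 3 males, all from farmed fish at the silver stage, which precedes the spawning migration, with no hormone given and with gonads that were differentiated and immature. RNA of each fish was sequenced as 1 library, and long reads of the same tissues gave the transcripts on which short reads were counted. No label gives the age of the fish.

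Cells mend DNA by several routes, each with its own proteins. Breaks through both strands are rejoined end to end or copied from the sister or homologous chromosome by homologous recombination, crosslinks between strands are handled by the Fanconi anaemia pathway, and damaged or mispaired bases are cut out by mismatch, nucleotide excision or base excision repair, while checkpoint kinases hold the cell cycle. In gonads the same proteins also serve meiosis, in which programmed breaks are repaired by recombination, and the egg is known to store repair proteins and their messages for the early embryo.

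Each library held 11913969 to 18508307 estimated counts, and 66 of the 71 genes had at least 50 counts in every library. Levels are FPKM, a count per length of transcript that the authors also scaled for library size, and are given in the order of replicates 1, 2 and 3 of each tissue. Fold changes are testis over ovary from edgeR's quasi-likelihood test on the counts, where a gene is called when its Benjamini-Hochberg adjusted p over all 12367 tested units (genes, and transcripts without a symbol) is under 0.05. The FPKM of a library summed to between 721650 and 1312673, with the highest sums in testis replicates 2 and 3, so a fold from the normalised counts can differ from the ratio of the FPKM shown beside it. The tissue labels were checked by marker sums: all 8 oocyte markers were found and summed to between 124900 and 143100 FPKM in the ovaries and to 618, 21960 and 4481 in testis replicates 1, 2 and 3, while all 10 meiotic markers were found and summed to between 28.4 and 34.9 in the ovaries and to 1704, 792 and 903 in the testes. Testis replicate 1 stood apart, with Spearman correlations over genes of 0.778 and 0.769 to the other testes, which correlated at 0.918 with each other. Its 12 markers of cell division that were found of 13 summed to 3718 FPKM, against 824 and 1137 in the other testes and 1558 to 1767 in the ovaries. Red cell markers, 4 of 8 found, summed to between 1416 and 3888 FPKM in the testes and between 173 and 209 in the ovaries, and leukocyte markers, 4 of 9 found, to between 84.2 and 364.6 and between 29.5 and 66.7. The part of these differences in the results was not tested.

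All 71 repair genes passed the filter on low counts. Of these, 22 were called higher in testis and 11 higher in ovary, and 38 were not called. This was 46.5% called, beside 45.9% of all units tested. In testis 31.0% of the repair genes were called higher, beside 24.8% of all units, and in ovary 15.5%, beside 21.1%. The log2 fold change had its median at 0.38 over the repair genes and at 0.11 over all units. FPKM of the tissues did not overlap for 42 of the 71 genes, which is 59.2%, as it is 59.2% of all units. The repair genes thus differed between the tissues about as often as other genes did. Called genes went in both directions in homologous recombination, the Fanconi group, nucleotide excision, base excision and the checkpoint. Those of end joining and the meiotic group were all higher in testis. The shares called higher in testis and in ovary were 30.8% and 15.4% in homologous recombination and 22.2% and 33.3% in the Fanconi group. They were 12.5% and 25% in nucleotide excision, 33.3% and 16.7% in base excision and 37.5% and 12.5% in the checkpoint. In end joining they were 60% and 0%, from 5 genes, and in the meiotic group 100% and 0%, from 3. Over all units the shares were 24.8% and 21.1%. How often other groups of genes mix directions was not tested. Since these are whole gonads, fewer cells of a type and less RNA per cell cannot be told apart for any repair gene.

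**Figure D1:**
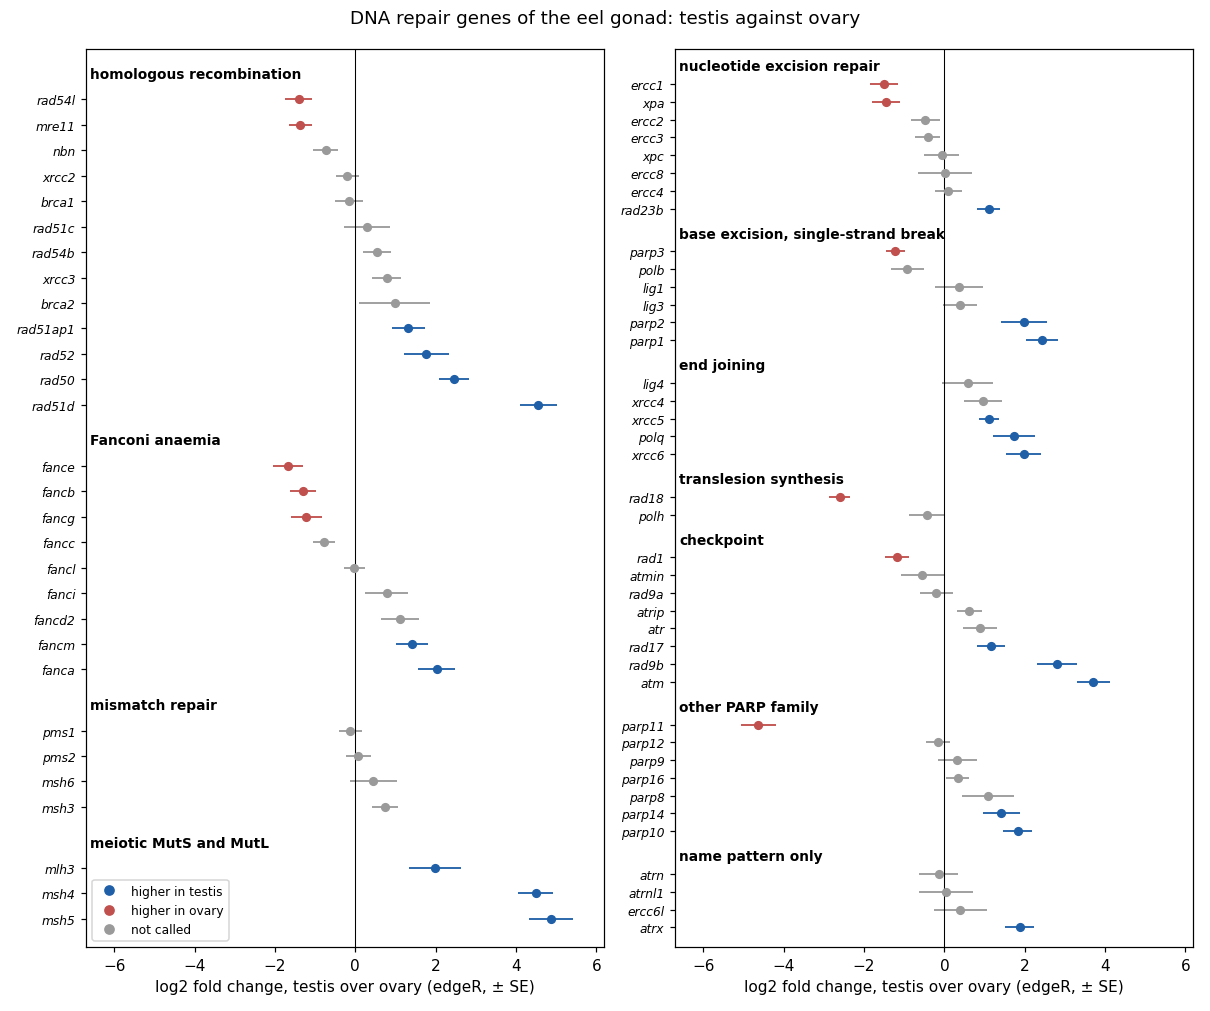
Each point is the log2 fold change of a repair gene, testis over ovary, with its standard error from edgeR, grouped by pathway; blue genes were called higher in testis, red genes higher in ovary and grey genes were not called. Homologous recombination and the Fanconi group hold both colours, while the called meiotic and end-joining genes are all blue.

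Homologous recombination was represented by 13 genes, of which 4 were called higher in testis, 2 higher in ovary and 7 not at all (median log2 fold change 0.54). The gene with the largest difference was rad51d, whose product belongs to the RecA-fold paralogs that assist recombination. Its levels were 1.8, 1.91 and 1.01 FPKM in the ovaries and 29.9, 54.1 and 46.0 in the testes. Every testis lay far above every ovary, and testis replicate 1 was the lowest of the testes. The fold was 23.6 (log2 fold change 4.56 ± 0.46 SE, edgeR adjusted p = 0.00111). Its partners in the paralog complexes were not called: xrcc2 stood at 33.9, 31.2 and 30.5 FPKM in the ovaries and at 26.0, 35.5 and 41.8 in the testes, and these ranges overlap. The paralogs rad51c and xrcc3 were not called either (edgeR adjusted p = 0.703 and 0.123). The FPKM ratio of rad51d to xrcc2 was therefore between 0.0331 and 0.0612 in the ovaries and between 1.10 and 1.53 in the testes.

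The complex that holds and trims broken ends, made of MRE11, RAD50 and NBN, had its members high in different tissues. The ATPase gene rad50 stood at 3.63, 3.73 and 5.09 FPKM in the ovaries and 42.0, 22.4 and 17.1 in the testes. The nuclease gene mre11 stood at 58.0, 41.8 and 68.0 FPKM in the ovaries and 25.33, 24.71 and 25.01 in the testes. Neither gene overlapped between the tissues, and their directions were opposite. The log2 fold change was 2.45 ± 0.37 SE for rad50 (edgeR adjusted p = 0.003) and -1.37 ± 0.29 SE for mre11 (edgeR adjusted p = 0.00886), and both were called under all 16 alternative settings tried. The third member, nbn, stood at 19.8, 31.4 and 27.6 FPKM in the ovaries and 27.8, 15.4 and 13.0 in the testes, which overlap through testis replicate 1. It was not called (edgeR adjusted p = 0.0954), but was called higher in ovary when testis replicate 1 was left out (edgeR adjusted p = 0.0327). Within a library the ratio of rad50 to mre11 FPKM was 0.0626, 0.0893 and 0.0749 in the ovaries and 1.66, 0.908 and 0.682 in the testes.

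Among the other recombination genes, the translocase gene rad54l was at 20.1, 21.0 and 14.6 FPKM in the ovaries and 11.6, 7.88 and 5.88 in the testes. All ovaries lay above all testes, and the log2 fold change was -1.41 ± 0.33 SE (edgeR adjusted p = 0.0132). The call was lost only without ovary replicate 2 among the libraries left out in turn (edgeR adjusted p = 0.0516). The strand-annealing gene rad52, at 3.74, 2.62 and 6.40 FPKM in the ovaries and 26.2, 12.1 and 14.3 in the testes, and rad51ap1, a recombination cofactor gene, at 4.95, 4.41 and 5.81 and at 21.4, 12.3 and 13.2, were called higher in testis (edgeR adjusted p = 0.0384 and 0.0361). Both calls rest on the full set of libraries: rad52 was not called when any library but ovary replicate 3 was left out (edgeR adjusted p from 0.0681 to 0.119), nor rad51ap1 when any library was (0.0561 to 0.119). The tumour suppressor gene brca1 ran from 16.1 to 22.6 FPKM in the ovaries and from 10.3 to 25.01 in the testes, and brca2, a tumour suppressor gene of the same pathway, was at 1.17, 2.27 and 1.75 and at 10.2, 1.72 and 0.840. Neither was called, and the brca2 level was high in testis replicate 1 alone.

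**Figure D2:**
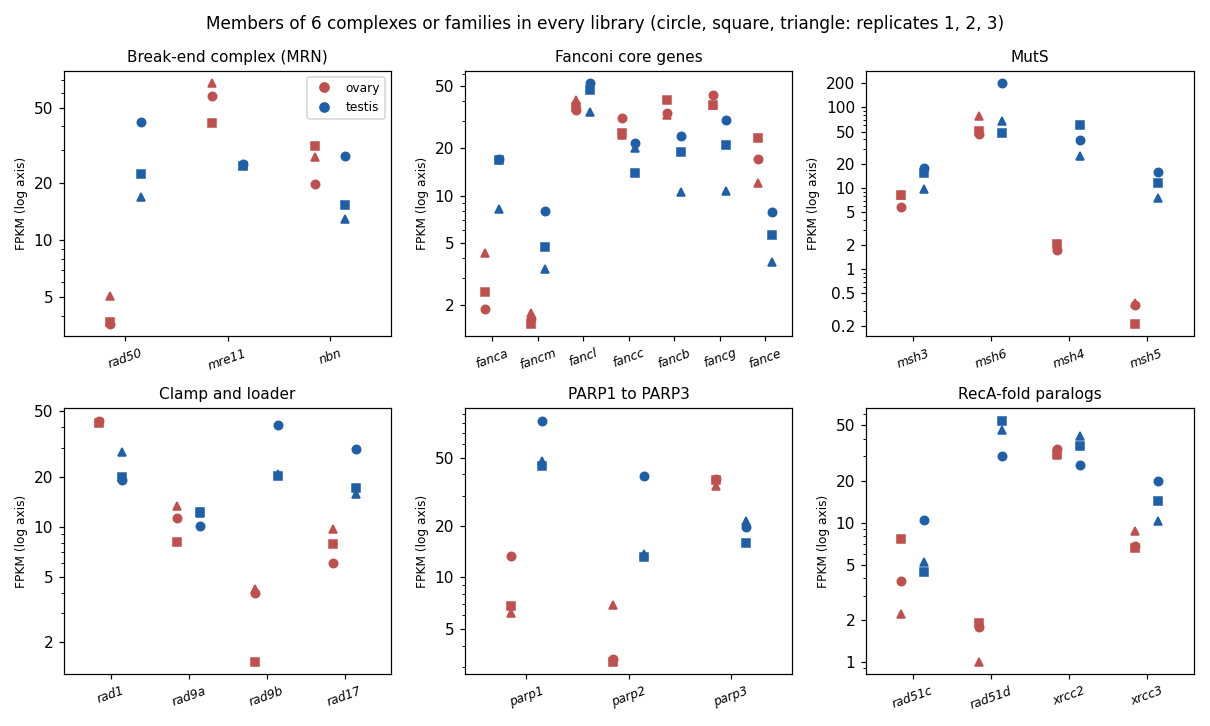
FPKM of every library on log axes for 6 complexes or families, with ovaries in red and testes in blue and a symbol for each replicate. The tissues part in opposite directions for rad50 and mre11, for fanca and fance, for rad9b and rad1, and for parp1 and parp3. The clamp genes msh4 and msh5 are high in testis, while their family members msh3 and msh6 lie closer between the tissues. The gene rad51d is high in testis beside paralogs whose levels are closer. The complexes were named after the values were seen. Those not shown (Ku, FANCD2 with FANCI, the ligases and MutL) held no genes called in opposite directions.

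The Fanconi group held 9 genes, 2 called higher in testis, 3 higher in ovary and 4 not called (median log2 fold change -0.02). The products of 7 of them belong to the core complex, a ubiquitin ligase that marks the FANCD2 and FANCI proteins at a crosslink. On the ovary side, fance, a core subunit that binds FANCD2, was at 17.2, 23.4 and 12.0 FPKM in the ovaries and 7.85, 5.60 and 3.79 in the testes. The core subunit fancb was at 33.6, 40.8 and 32.6 FPKM in the ovaries and 23.9, 18.9 and 10.5 in the testes. Both kept every ovary above every testis, with log2 fold changes of -1.67 ± 0.38 SE and -1.30 ± 0.32 SE (edgeR adjusted p = 0.0124 and 0.0159). The subunit fancg was at 43.6, 37.6 and 37.7 FPKM in the ovaries and 30.3, 21.1 and 10.8 in the testes (log2 fold change -1.22 ± 0.38 SE, edgeR adjusted p = 0.0349).

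On the testis side, fanca, whose product binds FANCG in one arm of the core complex, was at 1.89, 2.42 and 4.28 FPKM in the ovaries and 17.2, 16.9 and 8.21 in the testes (log2 fold change 2.03 ± 0.46 SE, edgeR adjusted p = 0.0121). The translocase fancm, which anchors the core complex to DNA, was at 1.62, 1.52 and 1.77 FPKM in the ovaries and 7.94, 4.69 and 3.41 in the testes (log2 fold change 1.42 ± 0.40 SE, edgeR adjusted p = 0.0251). The subunits called in opposite directions thus include fanca and fancg, and the FPKM ratio of fancg to fanca was 23.1, 15.5 and 8.80 in the ovaries and 1.77, 1.25 and 1.31 in the testes. The ligase subunit fancl, at 35.3, 36.5 and 40.8 FPKM in the ovaries and 52.3, 46.8 and 34.2 in the testes, overlapped and was not called. The core gene fancc, at 24.4 to 31.0 FPKM in the ovaries and 14.0 to 21.7 in the testes, narrowly missed the threshold (edgeR adjusted p = 0.0532). It was called higher in ovary on all libraries by DESeq2 (adjusted p = 0.0215) and limma-voom (0.047), and by edgeR without testis replicate 3 (0.0391).

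The targets of the core complex had their highest FPKM in testis replicate 1, and among the testes so did every other Fanconi gene. The gene fanci was at 22.4, 26.3 and 19.4 FPKM in the ovaries and 93.6, 26.8 and 21.4 in the testes, and fancd2 at 7.25, 7.37 and 10.3 and at 37.0, 15.6 and 10.7. The tissues overlapped for fanci and not for fancd2. Neither was called (edgeR adjusted p = 0.273 and 0.0885), and fancd2 was called higher in testis without testis replicate 3 (0.0462) and under upper quartile scaling (0.0472). Without ovary replicate 2 none of fanca, fancb and fance kept its call (edgeR adjusted p = 0.0504, 0.058 and 0.057). The calls of fancg and fancm were each lost without ovary replicate 1, 2 or 3 or testis replicate 2 (edgeR adjusted p from 0.057 to 0.0783 for fancg and from 0.0538 to 0.0891 for fancm). That of fancg was also lost under upper quartile scaling (adjusted p = 0.0504) and in limma on log2(FPKM + 1) and log2(FPKM + 0.1) (0.0642 and 0.0629). No called Fanconi gene changed direction under any setting.

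Mismatch repair corrects errors of replication. The gene msh6, whose product recognises base mispairs, was at 47.2, 50.6 and 78.8 FPKM in the ovaries and at 200, 47.4 and 67.4 in the testes. It was high in testis replicate 1 alone and was not called (edgeR adjusted p = 0.544). The gene msh3, whose product recognises larger loops, was at 5.89, 8.11 and 8.27 FPKM in the ovaries and 17.6, 15.4 and 9.66 in the testes. Its tissues did not overlap and yet it was not called (edgeR adjusted p = 0.0943), except under upper quartile scaling (0.0436). The MutL genes act after the mismatch is bound. Of these, pms1 was at 16.5, 22.8 and 27.2 FPKM in the ovaries and 22.4, 24.6 and 26.1 in the testes, and pms2 ran from 14.2 to 17.9 and from 15.5 to 31.3. Both overlapped between the tissues and were not called (edgeR adjusted p = 0.74 and 0.868).

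The genes msh4, msh5 and mlh3 act in meiosis, where MSH4 and MSH5 form a clamp that stabilises recombination intermediates and MLH3 takes part in resolving them as crossovers. All 3 were called higher in testis. The level of msh4 was 1.71, 2.02 and 2.06 FPKM in the ovaries and 39.3, 59.8 and 24.97 in the testes, a fold of 22.4 (log2 fold change 4.49 ± 0.43 SE, edgeR adjusted p = 0.00103). The level of msh5 was 0.360, 0.210 and 0.380 FPKM in the ovaries, from 20, 10 and 22 counts, and 15.6, 11.6 and 7.60 in the testes (log2 fold change 4.87 ± 0.55 SE, edgeR adjusted p = 0.00138). For both genes every testis was many times above every ovary, and msh5 was the lowest of all 71 genes in the ovary. The smaller difference of mlh3, from 1.89, 1.06 and 0.600 FPKM to 10.2, 3.60 and 3.50 (log2 fold change 1.99 ± 0.65 SE, edgeR adjusted p = 0.0422), lost its call when any library but ovary replicate 1 was left out (0.0587 to 0.121). The 10 meiotic markers, none of them a repair gene by this rule, were all called higher in testis as well.

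**Figure D3:**
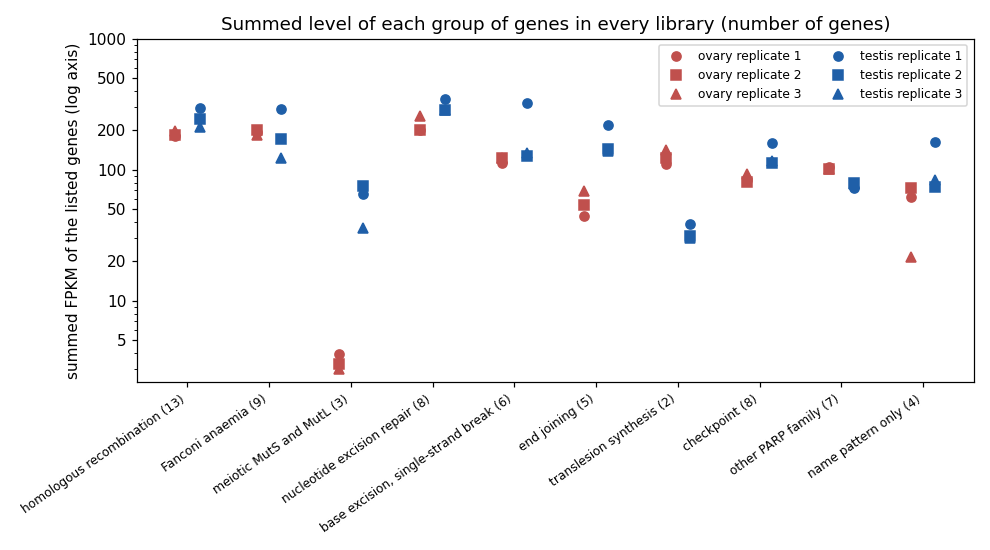
Summed FPKM of the genes of 10 groups in every library, on a log axis, with ovaries in red and testes in blue and the number of genes in brackets. The Fanconi sums overlap, translesion synthesis and the other PARP genes lie lower in every testis, and the other 7 groups lie higher in every testis. As CPM the homologous recombination and nucleotide excision sums overlap too, and without the 11 parp11 transcripts named by no other hit the other PARP genes are higher in testis (log2 ratio 0.59).

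Nucleotide excision repair removes bulky lesions such as those made by ultraviolet light. Of its 8 genes, 1 was called higher in testis, 2 higher in ovary and 5 not (median log2 fold change -0.24). The gene of the nuclease subunit ercc1 was at 22.2, 25.2 and 33.4 FPKM in the ovaries and 15.3, 11.5 and 8.94 in the testes, with every ovary above every testis (log2 fold change -1.5 ± 0.35 SE, edgeR adjusted p = 0.0125). The scaffold gene xpa was at 49.4, 48.4 and 51.4 FPKM in the ovaries, which were nearly equal, and at 18.9, 30.0 and 13.7 in the testes (log2 fold change -1.46 ± 0.35 SE, edgeR adjusted p = 0.0138). The nuclease partner of ERCC1, ercc4, was at 8.94, 7.52 and 9.92 FPKM in the ovaries and 13.9, 12.3 and 7.95 in the testes and was not called. The ratio of ercc1 to ercc4 was between 2.48 and 3.37 in the ovaries and between 0.936 and 1.13 in the testes.

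Of the damage sensors, rad23b, whose product stabilises XPC, was the most abundant repair gene of the testis, at 228.8, 169.4 and 211.6 FPKM, beside 60.3, 71.3 and 88.2 in the ovaries. Its log2 fold change was 1.10 ± 0.28 SE (edgeR adjusted p = 0.0181), and the call was lost without ovary replicate 1, ovary replicate 2 or testis replicate 3 (0.0531 to 0.0893). The gene of XPC itself was not called, with 5.98 to 13.8 FPKM in the ovaries and 8.08 to 15.3 in the testes. The helicase genes of the TFIIH complex overlapped between tissues, ercc3 at 28.6, 24.7 and 35.5 FPKM in the ovaries and 29.9, 30.6 and 19.9 in the testes, and ercc2 from 9.86 to 15.9 and from 8.78 to 15.5. The gene ercc8, which acts when a polymerase stalls at damage, was at 10.1, 2.28 and 8.77 FPKM in the ovaries and 10.5, 8.39 and 7.62 in the testes, and was not called.

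Base excision and strand-break repair was represented by 6 genes, 2 called higher in testis, 1 higher in ovary and 3 not called. The DNA-dependent PARP enzymes, which sense breaks and add ADP-ribose, parted in direction. The main enzyme, parp1, was at 13.3, 6.84 and 6.2 FPKM in the ovaries and 82.5, 44.7 and 48.1 in the testes, a fold of 5.37 (log2 fold change 2.43 ± 0.41 SE, edgeR adjusted p = 0.00421). Its close relative parp2 was at 3.36, 3.23 and 6.87 FPKM in the ovaries and 39.2, 13.2 and 13.7 in the testes (log2 fold change 1.98 ± 0.57 SE, edgeR adjusted p = 0.0276), and lost its call without ovary replicate 1, ovary replicate 2 or testis replicate 1 (0.0602 to 0.0928). In contrast, parp3 was at 37.4, 37.1 and 34.3 FPKM in the ovaries and 19.6, 16.0 and 21.5 in the testes (log2 fold change -1.22 ± 0.24 SE, edgeR adjusted p = 0.00682). The ratio of parp1 to parp3 ran from 0.181 to 0.356 in the ovaries and from 2.24 to 4.21 in the testes.

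The enzymes that fill and seal the gap were not called. The gap-filling polymerase gene polb was at 12.7, 14.3 and 21.2 FPKM in the ovaries and 13.5, 10.3 and 7.03 in the testes. The ligase gene lig1, which also seals replicated DNA, was at 28.6, 46.3 and 39.9 FPKM in the ovaries and 127, 26.8 and 28.1 in the testes, so that testis replicate 1 lay above all ovaries and the other testes below all of them. The ligase gene lig3 was high in the same library, at 43.5 FPKM, with the other 5 libraries between 15.4 and 16.8. The group therefore summed to 112 to 124 FPKM in the ovaries and to 325.8, 126.5 and 135.1 in the testes.

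End joining of broken ends had 5 genes, with a median log2 fold change of 1.11. Of these, 3 were called higher in testis and none higher in ovary (60% and 0%, beside 24.8% and 21.1% of all units). The Ku proteins, which ring the broken end, were both among them. The larger Ku gene, xrcc5, was at 28.0, 33.5 and 41.4 FPKM in the ovaries and 96.6, 90.5 and 79.4 in the testes (log2 fold change 1.11 ± 0.26 SE, edgeR adjusted p = 0.0125). The smaller, xrcc6, was at 7, 11.8 and 16.1 FPKM in the ovaries and 83.7, 36.3 and 43.1 in the testes (log2 fold change 1.97 ± 0.44 SE, edgeR adjusted p = 0.0112). Neither overlapped between tissues, and xrcc5 was higher than xrcc6 in every library, by a ratio of 2.57 to 4 in the ovaries and 1.15 to 2.49 in the testes. The call of xrcc5 was lost without ovary replicate 1 or ovary replicate 2 (edgeR adjusted p = 0.0642 to 0.0704). The gene polq, of the polymerase that joins ends by short homologies, was at 1.78, 2.19 and 1.45 FPKM in the ovaries and 12.7, 5.23 and 3.93 in the testes (edgeR adjusted p = 0.0329). It kept its call when testis replicate 3 was left out and lost it for any other library (0.0614 to 0.0904). The call was also lost in limma-voom (adjusted p = 0.0525) and in edgeR with a term for replicate number (0.075). The ligation genes were not called by edgeR: xrcc4 was at 5.70, 4.87 and 6.49 FPKM in the ovaries and 19.3, 10.4 and 10.97 in the testes, with a call in limma on log2(FPKM + 1) and log2(FPKM + 0.1) (adjusted p = 0.0352 and 0.0341), and lig4 ran from 1.34 to 3.21 and from 2.15 to 7.56.

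Translesion synthesis lets replication pass a lesion, and 1 of its 2 genes was called higher in ovary. The gene rad18, of the ubiquitin ligase that marks the sliding clamp PCNA at stalled forks, was the most abundant repair gene of the ovary. It was at 102, 108 and 120 FPKM in the ovaries and 23.2, 16.1 and 21.4 in the testes. The ovaries were close to each other and all far above the testes, and testis replicate 2 had the lowest rad18 level of all libraries. The part of oocytes in the rad18 levels was not tested. The level was 6.08-fold higher in ovary (log2 fold change -2.60 ± 0.26 SE, edgeR adjusted p = 0.00112). The bypass polymerase polh, the other gene of the group, was at 8.69, 14.6 and 20.8 FPKM in the ovaries and 15.02, 15.4 and 8.72 in the testes and was not called. The ratio of rad18 to polh was 11.7, 7.40 and 5.75 in the ovaries and 1.55, 1.04 and 2.45 in the testes.

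The checkpoint group had 8 genes, 3 called higher in testis, 1 higher in ovary and 4 not called (median log2 fold change 0.76). The kinase gene atm, whose product answers to breaks, was at 1.37, 0.910 and 1.09 FPKM in the ovaries and 27.8, 13.0 and 16.3 in the testes, a fold of 13.1 (log2 fold change 3.71 ± 0.41 SE, edgeR adjusted p = 0.0013). Every testis was above every ovary, and msh5 alone had a lower mean in the ovary than atm. The related kinase gene atr, which answers to single-stranded DNA, was at 3.47, 4.33 and 5.17 FPKM in the ovaries and 14.9, 9.11 and 4.78 in the testes and was not called (edgeR adjusted p = 0.128), except without testis replicate 3 (0.0442). Its partner atrip ran from 7.90 to 13.4 FPKM in the ovaries and from 15 to 17.9 in the testes and was also not called.

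The ring-shaped checkpoint clamp is built of RAD1, HUS1 and either RAD9A or RAD9B, and RAD17 loads it. The subunit gene rad9b was at 3.96, 1.53 and 4.22 FPKM in the ovaries and 41.1, 20.3 and 20.9 in the testes (log2 fold change 2.81 ± 0.50 SE, edgeR adjusted p = 0.00495). Its paralog rad9a was at 11.4, 8.12 and 13.4 FPKM in the ovaries and 10.2, 12.3 and 12.2 in the testes, which overlap, and was not called (edgeR adjusted p = 0.716). The level of rad9b was below that of rad9a in every ovary, by a ratio of 0.188 to 0.349, and above it in every testis, by a ratio of 1.65 to 4.04. The shared subunit rad1 was at 44.0, 42.5 and 43.3 FPKM in the ovaries and 19.1, 19.99 and 28.2 in the testes (log2 fold change -1.19 ± 0.30 SE, edgeR adjusted p = 0.0179), with the call lost without ovary replicate 1 or ovary replicate 2 (0.06 to 0.0678). The loader rad17 was at 6.05, 7.89 and 9.76 FPKM in the ovaries and 29.5, 17.1 and 15.8 in the testes (log2 fold change 1.15 ± 0.35 SE, edgeR adjusted p = 0.0324), with the call lost when replicate 1 or 2 of either tissue was left out (0.0577 to 0.11). The third subunit, hus1, is no member of the pattern and was chosen after its values were seen: it was at 27.2, 20.3 and 28.7 FPKM in the ovaries and 20.1, 10.5 and 9.17 in the testes, called higher in ovary (edgeR adjusted p = 0.0391). The last checkpoint gene, atmin, an interactor of ATM, was at 5.04, 4.50 and 2.35 FPKM in the ovaries and 3.93, 2.59 and 2.13 in the testes and was not called.

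The pattern also took 7 PARP genes that act mostly outside DNA repair, 2 called higher in testis and 1 higher in ovary. The gene parp10 was at 4.85, 3.14 and 2.54 FPKM in the ovaries and 18.3, 12.0 and 10.9 in the testes (log2 fold change 1.83 ± 0.36 SE, edgeR adjusted p = 0.00701). The level of parp14, which in mammals acts in immune signalling, was 2.13, 1.36 and 1.55 FPKM in the ovaries and 5.02, 10.7 and 10.4 in the testes (edgeR adjusted p = 0.0383), and it lost its call when any library but testis replicate 1 was left out (0.077 to 0.151). It was lowest of the testes in replicate 1, as was the leukocyte marker sum, and the part of leukocytes was not tested. The genes parp8, at 1.93, 1.38 and 2.02 FPKM in the ovaries and 2.19, 4.74 and 6.59 in the testes, and parp12, at 20.6, 17.0 and 19.3 and at 16.7, 21.8 and 15.4, were not called.

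The symbol parp11 had the largest fold of any repair gene toward the ovary, at 53.6, 60.1 and 59.9 FPKM in the ovaries and 2.17, 4.59 and 1.96 in the testes, 24.7-fold higher in ovary (log2 fold change -4.63 ± 0.43 SE, edgeR adjusted p = 0.00102). Most of this came from transcripts that carry the name on the protein hit alone. Of its 13 transcripts, 11 had no other hit that names a gene and no PARP catalytic domain in the deposited annotation, and these summed to 50.04, 51.9 and 56.3 FPKM in the ovaries and 0.230, 2.54 and 0.620 in the testes. The other 2 transcripts, which have the catalytic domain, summed to 3.58, 8.23 and 3.61 FPKM in the ovaries and 1.94, 2.05 and 1.34 in the testes. Counted on those 2 transcripts alone, a choice made after the data were seen, parp11 was 3.40-fold higher in ovary (log2 fold change -1.76 ± 0.56 SE, edgeR adjusted p = 0.0372). Neither of these 2 transcripts was called when tested alone (edgeR adjusted p = 0.0859 and 0.848), and the fit on both was not repeated with libraries left out. No transcript of another repair gene lacked a further hit that names a gene.

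Another 4 genes matched the pattern by their letters and are not repair genes by name. The chromatin remodeller atrx was at 13.1, 14.7 and 10.98 FPKM in the ovaries and 82.1, 36.0 and 40.3 in the testes (log2 fold change 1.88 ± 0.36 SE, edgeR adjusted p = 0.00674), with no overlap. The mitotic helicase gene ercc6l was at 7.22, 5.51 and 4.47 FPKM in the ovaries and 19.6, 3.49 and 3.94 in the testes. The attractin genes atrn, at 2.16, 2.59 and 2.30 and at 2.72, 2.05 and 3.62 FPKM, and atrnl1, at 39.7, 50.3 and 4.03 and at 57.8, 33.0 and 35.1, overlapped between tissues, and ovary replicate 3 was low for atrnl1. None of these 3 was called. With these 4 and the 7 other PARP genes left aside, 19 of 60 genes were called higher in testis and 10 higher in ovary. These shares were 31.7% and 16.7%, beside 24.8% and 21.1% of all units.

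Testis replicate 1, the library with the highest cell division sum, was above both other testes for 47 of the 71 genes (66.2%) in normalised counts, beside 40.7% of all units, and below both for 10, beside 41.1%. The median log2 difference between this testis and the mean of the other testes was 0.54 over the repair genes and -0.01 over all units. By group the median ran from 1.02 in base excision and 0.98 in end joining to 0.23 in nucleotide excision and translesion synthesis and -0.29 in the other PARP genes. Single genes reached 2.92 for brca2, 2.21 for ercc6l, 2.07 for lig1, 1.91 for msh6 and 1.86 for fanci, and the lowest were -1.48 for parp8 and -0.91 for rad51d. None of these 5 highest genes was called between the tissues. Without this library, 16 repair genes were called higher in testis and 12 higher in ovary. This was 39.4% called, beside 49.0% of the 12619 units in that fit. Of those units, 3155 were called higher in testis and 3026 higher in ovary. The log2 fold change then had its median at -0.03 over the repair genes and at -0.08 over all units. The higher share of testis calls among repair genes was thus absent without testis replicate 1. It was absent without ovary replicate 2 as well, where 11 of 71 repair genes and 2001 of 12589 units were called higher in testis. In that fit, however, the medians stayed apart, at 0.41 over the repair genes and 0.12 over all units. With any other library left out, the share called higher in testis was larger among repair genes. It was 13 of 71 beside 2027 of 12608 units without ovary replicate 1, and 19 of 71 beside 2434 of 12619 without testis replicate 3. The part of dividing cells in these values was not tested.

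**Figure D4:**
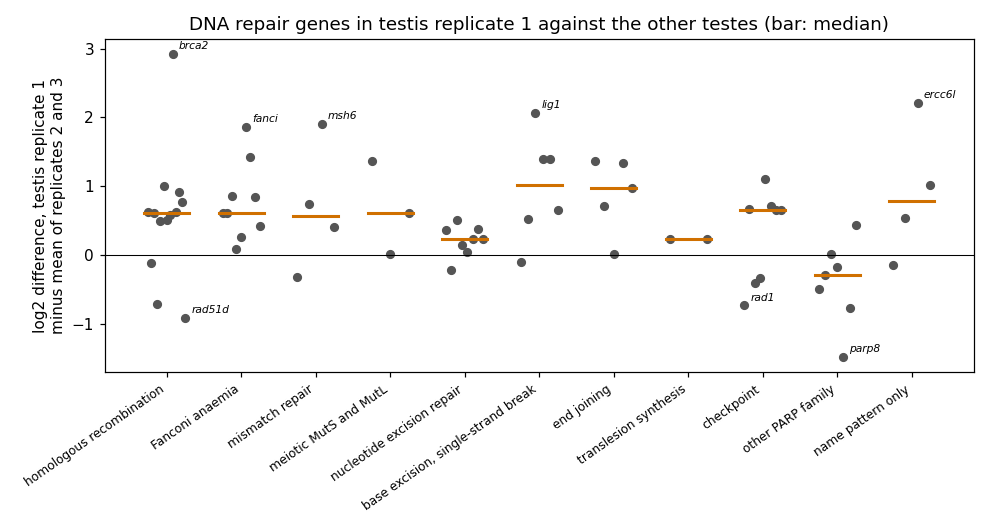
Each point is a repair gene, plotted as the log2 difference in normalised CPM (with 0.1 added) between testis replicate 1 and the mean of testis replicates 2 and 3, with a bar at the median of each group. Most points of every group but the other PARP genes lie above 0, and brca2, ercc6l, lig1, msh6 and fanci lie highest.

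Levels per length ranged widely among the repair genes. In the ovary the mean FPKM ran from 0.317 for msh5 to 110 for rad18, with a median of 10.97 beside 13.1 for all tested genes with a symbol. The next in order were rad23b at 73.2 ± 14.1, msh6 at 58.9 ± 17.4, parp11 at 57.9 ± 3.68 and mre11 at 55.9 ± 13.2 FPKM (mean ± SD, n = 3). In every ovary rad18 lay above all of them and rad23b above the other 3, while msh6, parp11 and mre11 overlapped. Most of the parp11 level came from the 11 transcripts named by no other hit. The lowest after msh5 were atm, mlh3 and rad51d, between 1.12 and 1.57. In the testis the mean ran from 2.80 for atrn to 203 for rad23b, with a median of 18.0 beside 15.6. The genes after rad23b included msh6 at 105 ± 83.0 and xrcc5 at 88.8 ± 8.72 FPKM (mean ± SD, n = 3), which overlap. The median coefficient of variation of a repair gene was 20.5% among the ovaries and 35.7% among the testes, close to the 23.5% and 37.4% of all genes.

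Each repair gene was the sum of 1 to 16 transcripts, with 11 genes holding a single transcript, and the transcripts ran from 1157 to 8666 bases with a median of 2942. A transcript was often found in 1 fish. Of 200 member transcripts with at least 3 FPKM summed over the ovaries, 44 had 80% or more of it in 1 ovary (22.0%, beside 19.3% of all transcripts), and of 199 in the testes 30 did (15.1%, beside 15.8%). No repair gene did so as a sum. The clearest case was xpa: all 12 of its transcripts that reached this level in the ovary had 80% or more in 1 fish. Its leading transcript held 26.3 FPKM in ovary replicate 1 and 0.060 and 0.920 in the other ovaries, another held 14.9 in ovary replicate 2 beside 0.390 and 0.660, and another 23.8 in ovary replicate 3 beside 0 and 0.060, while the sums of xpa differed by less than 3 FPKM among the ovaries. In parp11, 7 of 11 such transcripts were in 1 ovary. The leading transcript differed among the ovaries for 38 of the 60 genes with 2 or more transcripts, and among the testes for 47.

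**Figure D5:**
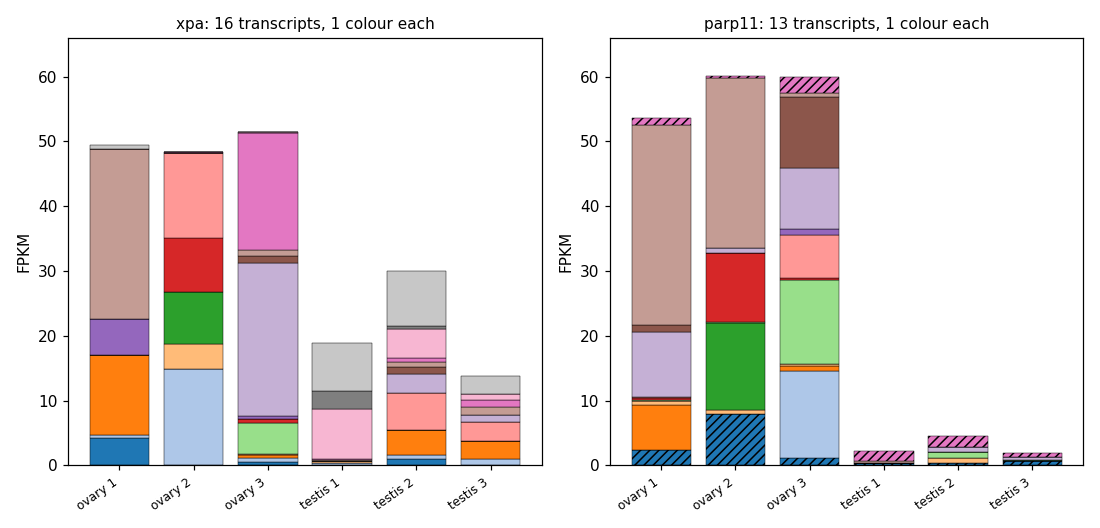
Stacked FPKM of the transcripts of xpa and parp11 in every library, 1 colour per transcript; hatched blocks are the 2 parp11 transcripts with a PARP catalytic domain. The ovaries have near-equal totals for xpa and are filled by different colours, and the parp11 total of each ovary is mostly made of unhatched blocks.

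Tested as single transcripts, 222 of the 250 passed the filter, and 14 were called higher in testis and 3 higher in ovary, beside 10.7% called of all transcripts (6.26% higher in testis and 4.40% higher in ovary). All 11 called transcripts built from testis long reads were higher in testis. A transcript is in the set only because long reads of its tissue held it, so its origin partly sets its direction. The same split over all called transcripts is not given, and nothing particular to repair genes is read from it. Of the 6 called ones built from ovary reads, 3 were higher in ovary and 3 in testis. Those higher in ovary were 2 of mre11 and the leading transcript of rad18, which had 54.5, 34.8 and 56.0 FPKM in the ovaries and 5.55, 5.47 and 5.04 in the testes. Of mre11, the transcripts diverged in direction: one was at 1.52, 12.3 and 1.59 FPKM in the ovaries and listed at 0 in all testes, and another, built from testis reads, was at 0.130, 0.160 and 0 in the ovaries and 7.39, 4.16 and 5.59 in the testes, the latter not called. One xpa transcript, against the direction of the gene, was called higher in testis, at 0.030, 0.060 and 0.150 FPKM in the ovaries and 7.68, 4.48 and 0.990 in the testes (log2 fold change 5.33 ± 1.30 SE, edgeR adjusted p = 0.0491).

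By the domains given in the deposited annotation, 10 genes had the PARP catalytic domain. Of these, 4 were called higher in testis and 2 higher in ovary, beside 24.8% and 21.1% of all units. The ovary calls were parp3 and parp11, and parp11 was counted here with its 11 transcripts that lack the domain. Counted on its other 2 transcripts alone, parp11 was still called higher in ovary (edgeR adjusted p = 0.0372). None of the 3 genes with the DNA ligase domain was called by edgeR (0 at an unadjusted p under 0.05), and none by any other tool run. Of the 71 genes, 22 carried no repair pathway in the deposited KEGG annotation, among them rad18, polq, msh4 and msh5.

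Genes that work with the repair genes and fall outside the name pattern were taken from fixed lists of 132 symbols, of which 95 were tested. Of these, 22 were called higher in testis and 24 higher in ovary, and 49 were not called (48.4% called, beside 45.9% of all units). The partners of nucleotide excision repair had 3 of 10 called, all higher in ovary, beside 21.1% of all units called in that direction. The partners of end joining had 2 of 7 called higher in testis and 1 higher in ovary (28.6% and 14.3%, beside 24.8% and 21.1% of all units). The one with the smallest adjusted p, the kinase prkdc, which binds the Ku ring, was at 7.28, 9.36 and 7.12 FPKM in the ovaries and 43.3, 50.5 and 43.6 in the testes (log2 fold change 2.30 ± 0.24 SE, edgeR adjusted p = 0.00116), and the polymerase gene poll was called higher in ovary (log2 fold change -1.26, edgeR adjusted p = 0.0383). Among the partners of homologous recombination the meiotic recombinase dmc1 was at 0.720, 0.680 and 1.71 FPKM in the ovaries and 90.8, 49.6 and 57.6 in the testes (edgeR adjusted p = 0.000854), whereas sfr1, a recombination mediator gene, was at 200.1, 122.6 and 120.8 in the ovaries and 31.2, 20.1 and 20.1 in the testes (edgeR adjusted p = 0.00122). The direct-reversal enzymes also parted, with mgmt at 25.1, 13.7 and 13.4 FPKM in the ovaries and 118, 486 and 661 in the testes, and alkbh3 at 36.9, 45.0 and 37.0 and at 19.95, 12.3 and 9.76 (edgeR adjusted p = 0.00434 and 0.00502).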

How the data were processed

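RNA of 3 ovaries and 3 testes was extracted with TRIzol and made into libraries with the NEBNext Ultra RNA kit, per the labels' protocols. The submitters' processing notes name featureCounts 1.5.0-p3, HISAT2 2.0.5, fastp and CASAVA 1.8. Their roles, the quantifier and the build have not been given in the sources used here. The deposited values are estimated counts and FPKM per full-length transcript, per the file headers; 26.5% to 31.6% of a library's estimated counts were whole, and no source used here says how the authors divided reads among similar transcripts. The deposited FPKM divide counts by transcript length and library size, as the authors computed them.

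Counts were summed per symbol, rounded and tested with edgeR 4.0.16 in R 4.3.3 (TMM, filterByExpr, robust quasi-likelihood fit, tissue as the only term), coded testis minus ovary, over 12367 units. A symbol can hold more than 1 eel locus or near-identical copy. Alternatives used upper quartile scaling, DESeq2 1.42.0, limma 3.58.1 (voom, and on log2(FPKM + 1) or log2(FPKM + 0.1)), other filters, other symbols, a replicate block and each library left out. The edgeR fit was also run on simulated counts with a small set of units changed by known folds. Far fewer units differed there than were called here, so nothing is concluded from it. Members and lists were chosen with earlier results of these data known. Named genes were, per list, the 4 with the smallest adjusted p, those opposite to most called members and the 2 most abundant, and calls lost on leaving out a library are given beside them. Counting intervals are not given, and p-values cover the spread between fish. Tables and figures were made in Python 3.11.15 with pandas 2.3.3, numpy 2.4.6 and matplotlib 3.10.9. Sequences and coordinates were not used here. The values of some members are left out of the text and figures.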

Additional observations from a re-analysis of the deposited data

How the results depend on the processing

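Of the 33 called repair genes, 17 kept their call and direction under all 16 alternatives, and no called gene changed sign under any. Of the 38 genes not called, 22 changed sign in 56 values, 0 of them called, and atr, fancc, fancd2, msh3, nbn and xrcc4 were called under at least 1 alternative. Leaving out each library in turn gave 11 to 19 repair genes higher in testis and 6 to 12 higher in ovary. Over all units it gave 2001 to 3155 higher in testis and 1894 to 3026 higher in ovary. The lowest counts all came without ovary replicate 2. The medians of all units moved by 0.19 on the log2 scale under upper quartile scaling and limma on log2(FPKM + 0.1), by 0.15 on log2(FPKM + 1) and by -0.18 without testis replicate 1. Replicate numbers do not pair the fish, since the ovaries came from females and the testes from males. Same-numbered ovaries and testes deviated with correlations of -0.032, 0.004 and -0.039, and a batch shared by replicate number was not tested. The fit with the replicate block gave 14 repair genes higher in testis and 10 higher in ovary. Transcripts depended most on the setting. DESeq2 called 35 of 222 repair transcripts higher in testis and 22 higher in ovary. It called 9907 of all transcripts in either direction, where the main edgeR fit called 3276 of 30738. For repair transcripts edgeR with the replicate block called 0 and 0 (42 at an unadjusted p under 0.05), and it called 0 of all transcripts. Leaving out a library gave 0 to 4 higher in testis and 0 to 1 higher in ovary by edgeR (42 to 55 at an unadjusted p under 0.05). Where it gave 0 it called 0 of all transcripts too, while the fit without testis replicate 1 called 1439 of all transcripts. Each of these fits has fewer degrees of freedom than the main one, and the part of this in the calls was not tested. Without the 11 parp11 transcripts named by no other hit, left out after the data were seen, the log2 ratio of summed FPKM of the other PARP genes, testis over ovary, went from -0.43 to 0.59. Among genes, msh5 had the lowest level in the ovary, where 10 to 22 counts limit its fold, and folds of single transcripts can rest on fewer counts.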
